A study of Rattus norvegicus with 6 samples.

Results

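The 8 genes described here encode the rat machinery that presents peptides on MHC class II molecules, and were chosen by name: Cd74, RT1-Da, RT1-Db1, RT1-Ba, RT1-Bb, RT1-DMa, RT1-DMb and Ciita. All 8 were found, each as 1 row, among the 34001 genes of the table. RNA came from whole pancreas of 6 Sprague-Dawley rats, an outbred stock, in 3 groups of 2. Control rats underwent abdominal opening with swab handling of the gland and 1 ml of saline by tail vein. TP rats (traumatic pancreatitis) had the pancreas crushed by an impactor at 3 cm2 and 10 kg, and were given saline. TP+hucMSC-Exs rats had the same crush and were given exosomes (vesicles shed by mesenchymal stem cells of the human umbilical cord) at a dose of 10 μg for each 100 g they weighed. All tissue was collected at 24 h. The labels used here state neither the age nor the sex of the rats.

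MHC class II molecules are cell-surface heterodimers that show peptides from endocytosed proteins to CD4+ T cells. They are made mainly by B cells, dendritic cells and activated macrophages, and in pancreas they are known from tissue-resident and infiltrating leukocytes and from nearby lymph nodes rather than from resting acinar cells. In the rat, RT1-Da with RT1-Db1 forms the counterpart of human HLA-DR, and RT1-Ba with RT1-Bb that of HLA-DQ; these 4 are called the classical chains below. Cd74, the invariant chain, guards the groove of new class II molecules and takes them to endosomes. RT1-DMa with RT1-DMb forms the non-classical DM molecule, which removes the last fragment of Cd74 from the groove and edits the peptides that replace it. Ciita is the transactivator that class II promoters need.

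Class II promoters are known for a shared module, an X box bound by the RFX complex and CREB-type factors followed by a Y box bound by NF-Y, on which Ciita acts. The windows below show which of its letters lie close to the start of 5 of these genes. RefSeq promoter sequences on assembly GRCr8 matched 6 of the 8 members, all but RT1-DMb and Ciita. Each line runs 5′ to 3′ on the gene's strand over 100 bases, from -130 to -31 relative to the start used in the promoter entry. On that assembly the 6 RT1 members lie together on chromosome 20, from the start of RT1-Da at 4515393 to the end of RT1-DMa at 4712335, with Ciita on chromosome 10. The stretches lie at chr20:4515285-4515384 (plus strand) for RT1-Da, chr20:4560193-4560292 (minus) for RT1-Db1, chr20:4576927-4577026 (plus) for RT1-Ba, chr20:4604149-4604248 (minus) for RT1-Bb and chr20:4712366-4712465 (minus) for RT1-DMa. Capitals mark matches to the X-type letters (G, any 2 bases, AC, any base, GATG), the Y-type letters TGATTGG or the CREB-type palindrome TGACGTCA.
RT1-Da: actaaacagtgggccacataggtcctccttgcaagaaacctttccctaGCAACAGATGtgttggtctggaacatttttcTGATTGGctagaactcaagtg
RT1-Db1: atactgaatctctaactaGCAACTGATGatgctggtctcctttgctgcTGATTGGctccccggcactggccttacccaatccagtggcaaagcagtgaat
RT1-Ba: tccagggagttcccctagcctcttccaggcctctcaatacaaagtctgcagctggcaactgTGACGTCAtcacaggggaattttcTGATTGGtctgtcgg
RT1-Bb: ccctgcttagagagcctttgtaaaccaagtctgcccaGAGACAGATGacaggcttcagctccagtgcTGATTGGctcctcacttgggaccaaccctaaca
RT1-DMa: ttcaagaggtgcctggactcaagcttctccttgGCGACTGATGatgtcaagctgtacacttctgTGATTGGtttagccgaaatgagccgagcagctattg

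In RT1-Da, RT1-Db1, RT1-Bb and RT1-DMa the X-type letters were followed by the Y-type letters after 21, 20, 20 and 21 bases. RT1-Ba held the Y-type letters at -45 and the palindrome at -69, but not the X-type letters. The 250 bases upstream of the start in the Cd74 promoter entry held none of the 3. The Cd74 gene begins on chromosome 18 at 56527071, and the stretch from -130 to -31 of its entry lies at chr18:56527076-56527175 (plus strand). Part of the searched window therefore lay inside the gene. Whether bases further upstream of Cd74 hold these letters was not tested. The letters were set after reading these windows, so the members' matches are a description. Searched on both strands in the 250 bases upstream of all 33469 promoter entries, the Y-type letters occurred in 6.42%, the X-type letters in 2.26% and the palindrome in 1.59%. X then Y at 10 to 40 bases occurred in 0.0269%, 9 entries. These were the 4 members, RT1-DOb and RT1-Db2 of the same family, Hsd17b7, and Asb15, which was listed as 2 entries. The motifs shown do not overlap one another.

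Values are TPM, length-scaled transcript levels that sum to 1000000 in each library, which allow levels to be compared between genes but keep no sequencing depth, so the depth was unknown. Log2 fold changes are differences of log2(TPM + 0.5); for genes of low level they understate the change. They come from limma, a linear model with a variance shared across genes, over all 11477 genes with a mean of at least 1 TPM. Errors are standard errors (SE) with n = 2 libraries a group, and adjusted p is Benjamini-Hochberg over all genes tested. The variance behind each SE is a trend over genes of like level, not the gene's own spread. As to the tissue, the listed acinar digestive enzymes took most of the TPM in 5 libraries, and transcripts outside that list made up 25.2% to 46.3% of the total. In TP replicate 2 that figure was 81.8%, and 13629 genes reached 1 TPM, against 5533 to 10537 elsewhere. TP replicate 2 therefore stands apart, and results that rest on it are given with and without it.

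Cd74 was the most abundant member in every library. It stood at 6.46 and 132 TPM in the controls, 12.8 and 544 TPM after the crush (TP), and 29.3 and 37.9 TPM with exosomes (TP+hucMSC-Exs) (replicates 1 and 2 in order here and below). Control replicate 2 lay above both treated libraries and TP replicate 2 above all others, so no group separated from another. The same overlap held for each classical chain in all 3 comparisons. Of all genes tested, 23.1% had both TP libraries above both controls and 1.09% below. Both treated libraries lay above both TP libraries in 5.09% and below in 1.62%. They lay above both controls in 86.9% and below in 1.63%, so overlap was uncommon in that comparison. Cd74 made up 40.6% to 52.0% of the summed TPM of the 7 structural members, that is, all but Ciita. That sum came to 13.5 and 253 TPM in control, 26.1 and 1154 TPM in TP, and 64.7 and 93.1 TPM in TP+hucMSC-Exs.

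RT1-Da, the alpha chain of the DR-type molecule, stood at 2.09 and 33.1 TPM in control, 3.16 and 142 TPM in TP, and 6.20 and 10.2 TPM in TP+hucMSC-Exs. Its partner RT1-Db1 stood at 1.52 and 34.6 TPM, 3.34 and 133 TPM, and 6.32 and 9.44 TPM. The ratio of alpha to beta transcripts of this pair stayed between 0.946 and 1.38 in all 6 libraries, while each chain ranged over more than an order of magnitude. Reads of RT1-Db1 can be split with the similar gene RT1-Db2, which was listed at 0 to 1.71 TPM.

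RT1-Ba, the alpha chain of the DQ-type molecule, stood at 1.40 and 28.7 TPM in control, 2.35 and 98.3 TPM in TP, and 3.52 and 4.68 TPM in TP+hucMSC-Exs. RT1-Bb, its beta chain, stood at 1.34 and 18.7 TPM, 1.60 and 65.4 TPM, and 4.21 and 4.88 TPM. The order of libraries was that of Cd74: control replicate 1 lowest, then TP replicate 1, both treated libraries, control replicate 2 and TP replicate 2. The alpha to beta ratio of this pair was 0.836 and 0.959 in the treated libraries, below the other 4, which spanned 1.04 to 1.53. The DR-type pair exceeded the DQ-type pair in every library, by 1.32 to 2.05 times.

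The DM chains did not follow that order. RT1-DMa stood at 0.30 and 3.63 TPM in control, 2.31 and 111 TPM in TP, and 10.3 and 17.8 TPM in TP+hucMSC-Exs. RT1-DMb stood at 0.39 and 2.77 TPM, 0.59 and 59.7 TPM, and 4.86 and 8.25 TPM. Here both treated libraries lay above both controls, control replicate 2 included. Of 11477 genes tested, 86.9% also had both treated libraries above both controls, so the separation is what most genes showed; 1.63% lay below.

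Ciita was at the bottom of the range, with 0.02 and 1.37 TPM in control, 0.06 and 3.19 TPM in TP, and 0.12 and 0.20 TPM in TP+hucMSC-Exs. Its mean of 0.827 TPM fell under the minimum of 1 TPM, so 7 of the 8 members entered the test. As a percentage of Cd74, Ciita ranged from 0.310% to 1.04%, with the highest value in control replicate 2.

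**Figure D1:**
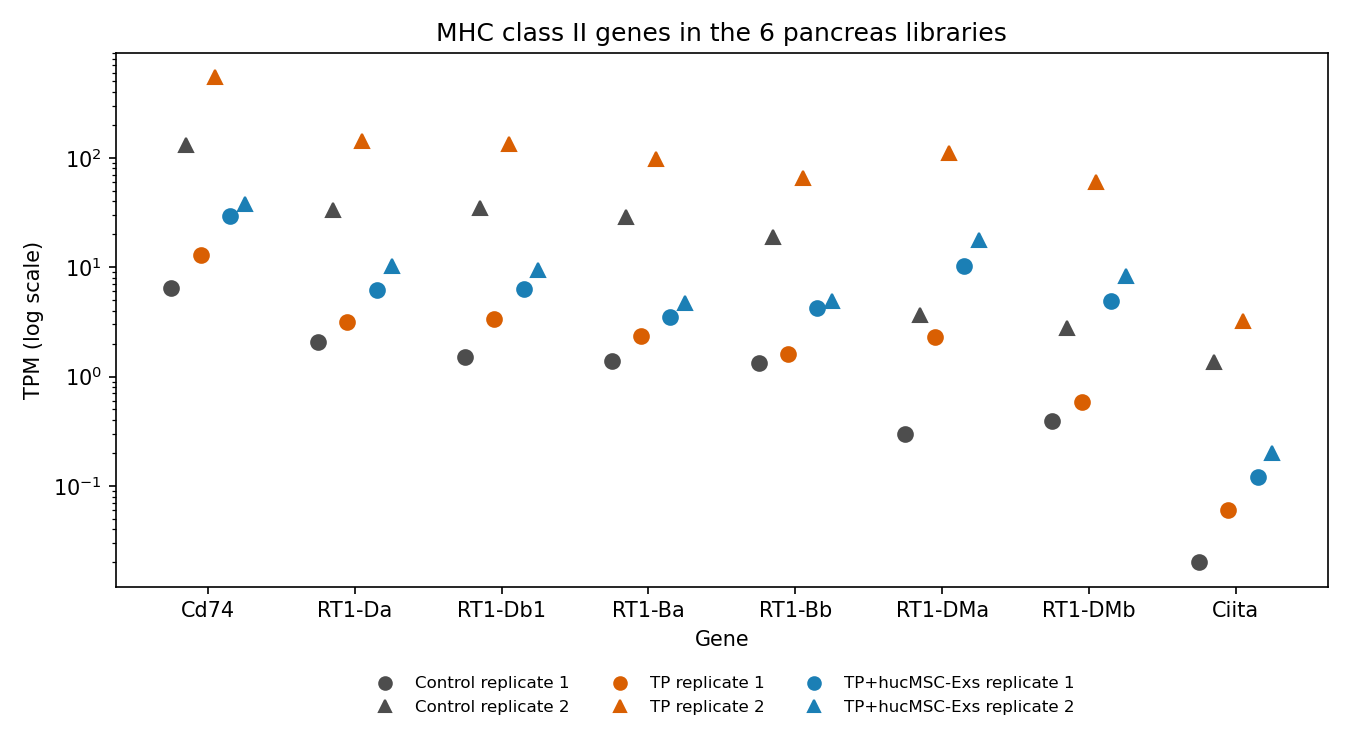
TPM of the 8 genes (log scale) in each of the 6 libraries, 1 point per library, coloured by group and with circles for replicate 1 and triangles for replicate 2. Control replicate 2 lies above both treated libraries for Cd74, the 4 classical chains and Ciita, and below them for RT1-DMa and RT1-DMb.

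The controls differed from each other far more in these genes than in the typical gene. The ratio of control replicate 2 to replicate 1 was 20.4 for Cd74 and 14.0 to 22.8 for the classical chains. It was 12.1 for RT1-DMa, 7.10 for RT1-DMb and 68.5 for Ciita, whose lower value was near 0. On the log2(TPM + 0.5) scale the gap for Cd74 was 4.25, against 0.49 for the median gene tested, and 0.288% of the tested genes had a gap at least as large. For RT1-DMb, the smallest gap among the 7 tested members, that share was 2.77%. In the TP group the replicate 2 to replicate 1 ratio was 42.6 for Cd74 and 39.8 to 101 over the 8 genes. The median gene there already differed by 3.03 on the log2 scale. In the TP+hucMSC-Exs group the ratio was 1.16 to 1.73 over the 8 genes, so there the libraries lay close together.

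Lymph node, B cell and T cell transcripts moved with this gap. The lymph node stroma list (6 genes) summed to 2.79 and 212 TPM in control, 1.47 and 206 TPM in TP, and 6.30 and 5.18 TPM in TP+hucMSC-Exs. Glycam1, a ligand of high endothelial venules, was listed at 0 in control replicate 1 and 52.7 TPM in control replicate 2, and Ccl21, a chemokine that draws lymphocytes and dendritic cells into lymph nodes, at 1.66 and 125 TPM. The B cell list (12 genes) summed to 0.25 and 28.2 TPM in control, 0.08 and 21.6 TPM in TP, and 1.46 and 2.58 TPM in TP+hucMSC-Exs. In control replicate 1, 8 of the 12 were listed at 0, among them Ms4a1 and Cd79b, and in TP replicate 1 it was 9 of the 12, while in control replicate 2 none was. The T cell list (10 genes) summed to 0.22 and 50.01 TPM, 1.44 and 93.3 TPM, and 14.7 and 25.2 TPM, with 8 of the 10 at 0 in control replicate 1. Cd8a, a co-receptor chain, carried most of that sum in the treated libraries; without it the list came to 0.22 and 47.1 TPM, 0.90 and 40.1 TPM, and 3.20 and 4.64 TPM. The part of these transcripts in the class II levels was not tested. In bulk tissue, more cells of a type and more RNA per cell cannot be told apart.

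Macrophage and neutrophil transcripts had another order. The dendritic cell list (10 genes) summed to 0.89 and 13.9 TPM in control, 5.92 and 191 TPM in TP, and 12.5 and 23.6 TPM in TP+hucMSC-Exs. Most of that sum in the treated libraries was Clec10a, a lectin also made by macrophages. Without it the list came to 0.27 and 11.8 TPM, 0.61 and 68.8 TPM, and 3.30 and 5.62 TPM, in the library order of Cd74. The place of control replicate 2 in that order leaned on 1 gene, Ccr7, with 7.53 of the 11.8 TPM. Of the 6 dendritic cell genes tested, Clec10a included, 3 had both treated libraries above both controls, against 86.9% of all genes tested. The macrophage list (13 genes, none at 0 in any library) summed to 25.5 and 166 TPM, 71.4 and 5292 TPM, and 462 and 848 TPM. Neutrophil genes (11, listed after these values were seen) summed to 0.72 and 3.73 TPM, 3.49 and 553 TPM, and 61.1 and 116 TPM. The macrophage and neutrophil sums were higher in both treated libraries than in control replicate 2, unlike Cd74 and the classical chains. Most genes did the same, as 86.9% of those tested had both treated libraries above both controls. Without Lyz2, its most abundant gene, the macrophage list still had 127 and 199 TPM in the treated libraries against 62.5 TPM in control replicate 2. TP replicate 2 also held 3739 TPM of 7 fat cell genes, against 15.9 to 36.4 TPM elsewhere, and 4353 TPM of 5 fibroblast genes, against 29.8 to 147 TPM. The part of these cell types in the levels of TP replicate 2 was not tested.

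**Figure D2:**
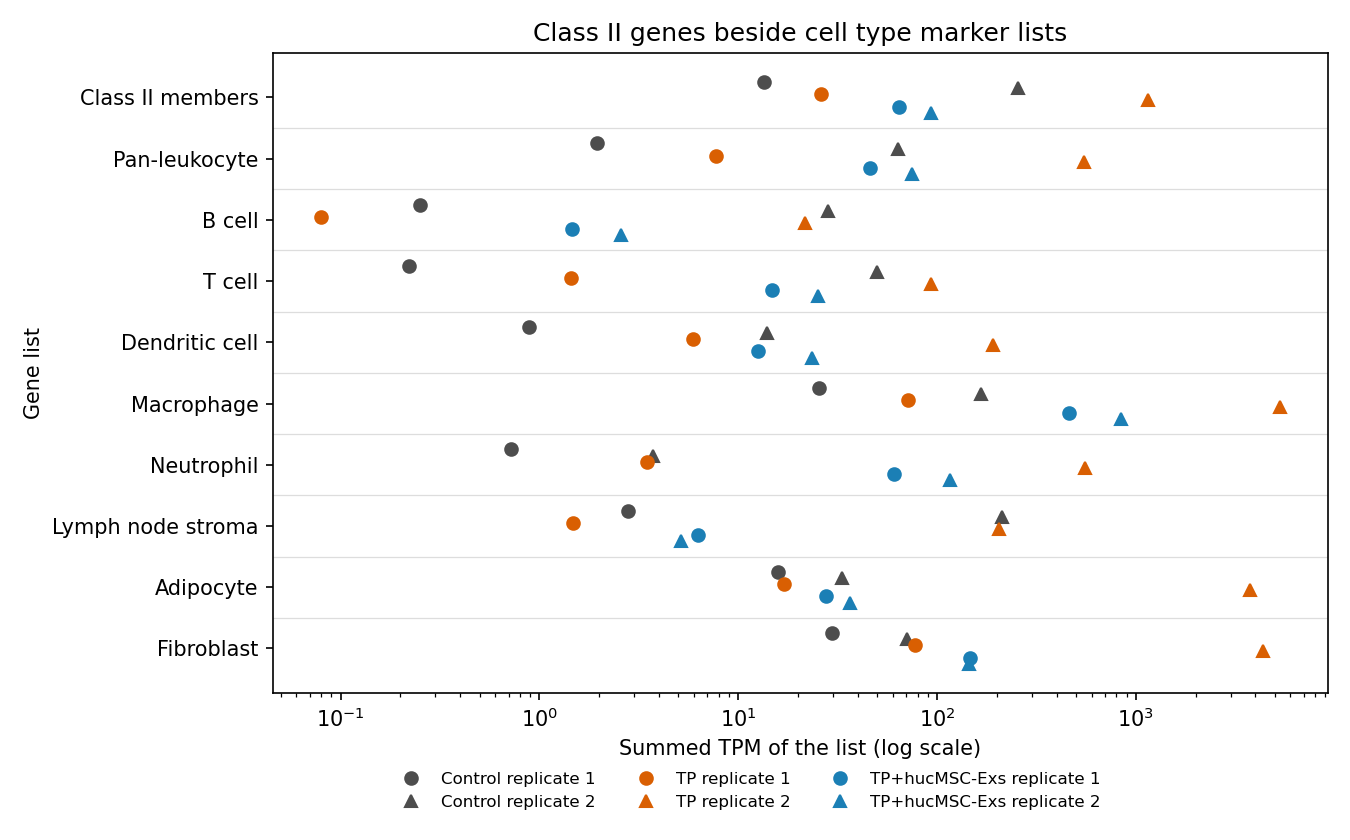
Summed TPM (log scale, x axis) of the 8 class II genes and of 9 marker lists (y axis), 1 point per library with colour for group and shape for replicate. Control replicate 2 lies beside TP replicate 2 in the B cell and lymph node rows, and below the treated libraries in the macrophage and neutrophil rows.

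The comparison of TP with control asked what the crush did to these genes. No member passed at an adjusted p below 0.05, in a comparison where limma called 0.0523% of genes (6 of 11477). At an unadjusted p below 0.05 it was 1 member, RT1-DMa, beside 3.96% of genes that were higher at that level. Cd74 had a log2 fold change of 1.49 ± 1.34 (SE; limma adjusted p = 0.555), where the median gene stood at 1.50. The classical chains lay between 0.98 (RT1-Bb) and 1.43 (RT1-Db1). RT1-DMa stood at 3.29 ± 1.43 (95% interval 0.49 to 6.08; limma adjusted p = 0.555) and RT1-DMb at 2.25 ± 1.43 (adjusted p = 0.555). The values rest on TP replicate 2: without it Cd74 stood at -1.19, the classical chains at -1.50 to -1.13, RT1-DMa at 0.63 and RT1-DMb at -0.65, with 0 members called beside 0.174% of genes called higher. They rest on control replicate 1 too: without it Cd74 stood at -0.64 and the classical chains at -0.80 to -0.56, and the DM chains at 2.10 and 1.31. Without TP replicate 1, RT1-Da, RT1-DMa and RT1-DMb were called higher (limma adjusted p = 0.0464, 0.00265 and 0.00243), but so were 91.5% of all genes. With median-of-ratios scaling, which sets the median gene near 0, Cd74 stood at -0.22 and the classical chains at -0.68 to -0.22, so their direction depended on the scaling, while RT1-DMa stood at 1.90 and RT1-DMb at 0.70.

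The comparison of TP+hucMSC-Exs with TP asked what exosomes changed in crushed tissue. No member passed, in a comparison where limma called 0.0697% of genes (8 of 11477); at an unadjusted p below 0.05 it was again 0 members, beside 0.566% of genes that were lower at that level. Cd74 stood at -1.33 ± 1.34 (SE; limma adjusted p = 1) and the classical chains at -1.88 (RT1-Ba) to -1.22 (RT1-Bb), beside -0.38 for the median gene. RT1-DMa stood at -0.33 ± 1.43 (95% interval -3.13 to 2.46) and RT1-DMb at -0.24 ± 1.43 (-3.04 to 2.55). The direction was set by which TP library was used. Without TP replicate 2 all 7 lay above 0, from 0.68 (RT1-Ba) to 2.65 (RT1-DMb), and none was called, beside 1.73% of genes called higher. Without TP replicate 1 all 7 lay below 0, and 5 of them were called lower (RT1-Da, RT1-Ba, RT1-Bb, RT1-DMa and RT1-DMb, limma adjusted p = 0.0204 to 0.0467), as were 79.5% of all genes.

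The comparison of TP+hucMSC-Exs with control set treated injured tissue beside uninjured tissue. No member passed, in a comparison where limma called 0.209% of genes (24 of 11477). At an unadjusted p below 0.05 it was 1 member, RT1-DMa, beside 2.85% of genes that were higher at that level. Cd74 stood at 0.16 ± 1.34 (SE; limma adjusted p = 0.943), RT1-Da at -0.14, RT1-Db1 at -0.03, RT1-Ba at -0.71 and RT1-Bb at -0.24, all below the 1.09 of the median gene. RT1-DMa stood at 2.95 ± 1.43 (95% interval 0.15 to 5.75; limma adjusted p = 0.8) and RT1-DMb at 2.01 ± 1.43 (adjusted p = 0.8). Against control replicate 1 alone Cd74 stood at 2.28 and the classical chains at 1.26 to 2.03; against control replicate 2 alone they stood at -1.97 and at -2.68 to -1.93. The DM chains stayed above 0 against either control, RT1-DMa at 4.14 and 1.77 and RT1-DMb at 2.94 and 1.07. Fitted on these 2 groups alone, without the spread between the TP libraries, RT1-DMa was called higher (limma adjusted p = 0.0336) and RT1-DMb was not (adjusted p = 0.0541), where 52.3% of all genes were called higher. Leaving out either TP library had the same effect on RT1-DMa (limma adjusted p = 0.0377 and 0.0364, where 52.1% and 51.9% of genes were called higher). Among these 3 comparisons each pair shares a group of libraries, so their values are not independent.

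**Figure D3:**
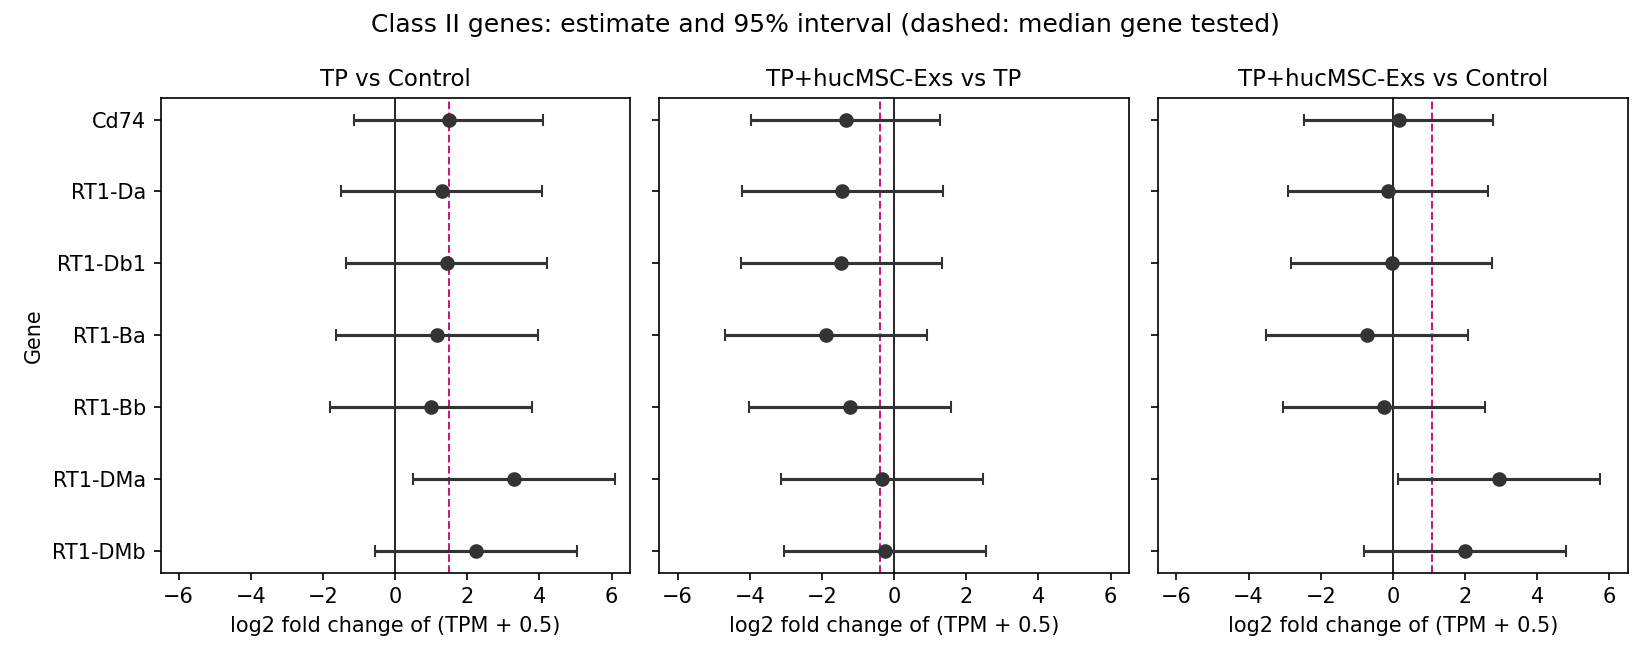
Log2 fold changes of TPM + 0.5 (x axis) for the 7 tested class II genes (y axis) in the 3 comparisons, as limma estimates with 95% intervals from n = 2 libraries a group; the solid line is 0 and the dashed line the median of 11477 genes. Cd74 and the classical chains lie at or below the dashed line in each panel, and RT1-DMa lies above it, with an interval that spans it.

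The level of DM relative to the classical chains separated the groups. The ratio of 2 transcripts within a library does not depend on how libraries are scaled. Summed RT1-DMa and RT1-DMb came to 0.109 and 0.0556 times the summed classical chains in control, 0.278 and 0.390 times in TP, and 0.748 and 0.893 times in TP+hucMSC-Exs. The 3 groups did not overlap, and the TP libraries lay close together although their class II levels differed by more than an order of magnitude. On the log2 scale the mean ratio differed by 2.08 between TP and control, by 1.31 between TP+hucMSC-Exs and TP, and by 3.40 between TP+hucMSC-Exs and control. With 2 libraries against 2 the two-sided exact permutation test gave p = 0.333 for each, the smallest it can give, so none could pass 0.05. With 1 library left out at a time these differences ran from 1.60 to 2.57, 1.07 to 1.56 and 2.91 to 3.88. The ratio was chosen after its values were seen, and where groups do not overlap no such omission can turn the sign, so this is no sign of stability. Nor was such a separation particular to DM. Cd74 relative to the macrophage sum, in which Lyz2 is the most abundant gene, also had no overlap between groups. It stood at 0.253 and 0.794 in control, 0.179 and 0.103 in TP, and 0.0634 and 0.0446 in TP+hucMSC-Exs. The share of all genes that would separate in this way was not tested.

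Single chains gave nearly the same picture. RT1-DMa relative to RT1-Da was 0.144 and 0.110 in control, 0.731 and 0.786 in TP, and 1.66 and 1.75 in TP+hucMSC-Exs. RT1-DMb relative to RT1-Db1 was 0.257 and 0.0800 in control, 0.177 and 0.449 in TP, and 0.769 and 0.874 in TP+hucMSC-Exs, so that control and TP overlapped for the beta chains. Relative to Cd74, the DM pair stood at 0.107 and 0.0486, 0.227 and 0.314, and 0.517 and 0.689, with no overlap. DMa exceeded DMb in 5 libraries, by 1.31 to 3.92 times, and stood at 0.769 times DMb in control replicate 1, where both were under 0.4 TPM.

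Set beside 5 pan-leukocyte genes (Ptprc, Coro1a, Laptm5, Cd53, Cd52), the classical chains and DM had different orders. The classical chains stood at 3.27 and 1.81 times the leukocyte sum in control, 1.35 and 0.799 times in TP, and 0.439 and 0.389 times in TP+hucMSC-Exs, with no overlap between groups. Cd74 followed, at 3.33 and 2.07, 1.65 and 0.992, and 0.635 and 0.505 times. The DM pair stood at 0.356 and 0.101 times in control, 0.374 and 0.312 times in TP, and 0.329 and 0.348 times in TP+hucMSC-Exs, so the groups overlapped. Coro1a made up 42.3 of the 63.7 TPM of the leukocyte sum in control replicate 2. Without it the classical chains still did not overlap between groups, at 5.00 and 5.40, 2.52 and 1.56, and 0.910 and 0.838 times. The DM pair then stood at 0.543 and 0.300 times in control, below the 0.699 and 0.609 times in TP and the 0.681 and 0.749 times in TP+hucMSC-Exs, so its overlap with control rested on that gene. The two-sided exact permutation p was again at its minimum of 0.333 for each difference in the classical chains. The leukocyte sum was 1.94 TPM in control replicate 1, so that ratio rests on low values. Neutrophils carry these leukocyte genes too, and their sums, given above, were higher in both treated libraries than in either control; their part in the ratios was not tested.

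**Figure D4:**
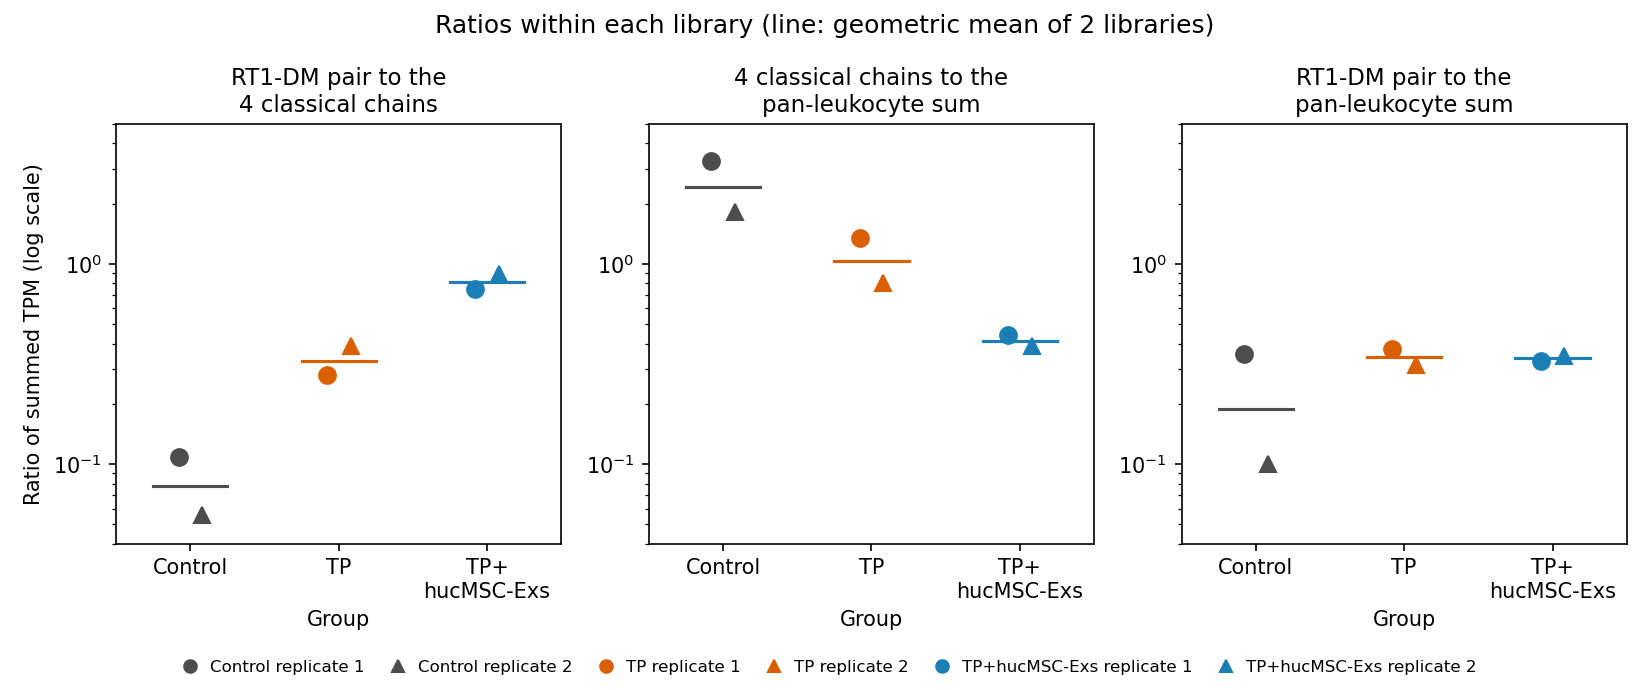
Ratios of summed TPM within each library (log scale), with 1 point per library and a line at the geometric mean of the 2 libraries of a group. DM relative to the classical chains goes from 0.0556 and 0.109 in control to 0.748 and 0.893 in TP+hucMSC-Exs, the classical chains relative to leukocyte genes go the other way, and DM relative to the 5 leukocyte genes, Coro1a included, overlaps between groups.

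DO, the non-classical partner that restrains DM and is known mainly from B cells, had little transcript. RT1-DOa stood at 0 and 2.01 TPM in control, 0.03 and 1.79 TPM in TP, and 0.04 and 0.39 TPM in TP+hucMSC-Exs. RT1-DOb stood at 0 and 1.75 TPM, 0 and 2.46 TPM, and 0.07 and 0.07 TPM. Both had their high values in control replicate 2 and TP replicate 2, and neither reached the mean of 1 TPM needed for testing.

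Other genes of the pathway were taken from fixed lists. The list for class II processing and loading held 12 symbols, with March1 and Marchf1 as names of the same gene. Of these symbols 11 were in the table and 7 were tested, and 0 passed in any comparison. Their median log2 change in TP+hucMSC-Exs against control was 2.33, beside 1.09 for all genes tested. In TP against control it was 2.32, which rests on TP replicate 2: without that library it was 0.25, where the median of all genes went from 1.50 to 0.0013. In TP+hucMSC-Exs against control, leaving out either TP library brought all 7 past the threshold, where 52.1% and 51.9% of all genes were called higher. The endosomal protease Ctsb, the most abundant, stood at 27.5 and 38.2 TPM in control, 59.8 and 1785 TPM in TP, and 353 and 488 TPM in TP+hucMSC-Exs (log2 change against control 3.66 ± 1.20 in the treated group, limma adjusted p = 0.406). Ctsl, a related protease, stood at 46.0 and 57.2 TPM, 82.2 and 806 TPM, and 256 and 330 TPM. Ctss, which trims Cd74 in antigen-presenting cells, stood at 1.04 and 4.82 TPM, 1.11 and 84.6 TPM, and 9.01 and 14.8 TPM, so its treated values, like those of DM, lay above control replicate 2.

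All 7 factors of the class II promoter module (RFX, NF-Y and CREB genes) were tested and 0 passed. Their medians against control were 1.60 in TP, or 0.16 without TP replicate 2, and 1.15 in TP+hucMSC-Exs, close to those of all genes. In TP+hucMSC-Exs against control no TP library enters the median, so leaving out either could not move it from 1.15. The same holds for the interferon list described next, whose median was 1.57, beside 1.09 for all genes tested. Nfyc, an NF-Y subunit, stood at 2.13 and 4.04 TPM, 3.32 and 29.5 TPM, and 5.48 and 8.52 TPM in the 3 groups. Rfxank, of the RFX complex, stood at 1.35 and 1.55 TPM, 1.67 and 15.6 TPM, and 3.38 and 4.24 TPM. Both had TP replicate 2 highest and the treated libraries above the controls. Interferon gamma is the classical inducer of Ciita; its gene Ifng was listed at 0 in all 6 libraries, and 0 of the 9 tested genes of its signalling list passed. The receptor chain Ifngr1 stood at 3.14 and 6.58 TPM, 4.55 and 82.9 TPM, and 27.9 and 37.3 TPM, and the kinase Jak1 at 5.68 and 10.4 TPM, 6.87 and 62.4 TPM, and 15.9 and 17.7 TPM. Of 6 costimulation and T cell contact genes 3 were tested and 0 passed; Cd40, a costimulatory receptor, stood at 0.06 and 1.49 TPM, 0.03 and 6.08 TPM, and 0.34 and 0.59 TPM, in the library order of Cd74 but for the lowest places. Cd4, the T cell co-receptor that binds class II and is also made by rat macrophages, stood at 1.18 and 6.85 TPM, 1.66 and 47.9 TPM, and 2.41 and 4.33 TPM.

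MHC class I genes, which present peptides from inside the cell to CD8+ T cells, were set beside class II. Of 10 listed, 9 were tested and 0 passed in any comparison. In TP+hucMSC-Exs against control their median log2 change was 2.28, beside -0.03 for the 7 class II genes and 1.09 for all genes. All 9 had both treated libraries above both controls, against 86.9% of all genes, while 2 of the 7 class II genes did. Leaving out either TP library left these medians as they were, since no TP library enters them. RT1-A1, a classical class I heavy chain, stood at 33.9 and 106 TPM in control, 34.4 and 805 TPM in TP, and 151 and 201 TPM in TP+hucMSC-Exs. RT1-A2, another, stood at 42.2 and 109 TPM, 54.5 and 582 TPM, and 121 and 191 TPM. Tap1, a subunit of the peptide transporter, stood at 0.71 and 2.16 TPM, 0.71 and 23.9 TPM, and 17.2 and 23.3 TPM. The difference between the class I and class II lists was not tested.

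The genes whose pattern over the 6 libraries was most like that of the 7 structural members were found by Pearson's r of log2(TPM + 0.5) with their mean. The 10 highest of 9989 named genes were Pik3cd, Hvcn1, Pced1b, Il2rg, Stk17b, Septin6, Sash3, Ikzf1, Spn and Cd37, with r from 0.998 to 0.994. Il2rg, the shared gamma chain of several interleukin receptors, stood at 0.29 and 7.98 TPM in control, 0.56 and 48.5 TPM in TP, and 2.78 and 4.67 TPM in TP+hucMSC-Exs, in the library order of Cd74. With 6 points and the same libraries, such values are a description, and 352 of the named genes (3.52%) had an r of at least 0.95. Among the members themselves, Cd74 and the 4 classical chains correlated with one another at 0.984 to 0.999. RT1-DMa correlated with RT1-DMb at 0.977 and with Cd74 at 0.827, and Ciita correlated most closely with RT1-Ba (0.995) and least with RT1-DMa (0.687).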

How the data were processed

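The values used are the TPM per gene and library that the authors deposited for rat pancreas RNA-seq; per the labels' protocols, a SMARTer mRNA-Seq kit was used. Aligner and quantifier: not given in the sources used here. Per the submitters' processing notes, mouse builds were involved, while 32883 genes carry rat Ensembl identifiers. RT1 genes are polymorphic and the rats outbred; how well their reads matched the annotation was not tested. Library columns were assigned by name; those of TP carry a number that no label explains. The deposited group means equalled the means of their libraries within 0.01 TPM for all 34001 genes, and entered no test. Gene length in the deposited table, an other kind of value, entered no test.

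Log2(TPM + 0.5) of genes with a mean of at least 1 TPM was fitted over all 6 libraries with limma 3.58.1 in R 4.3.3. The fit had a variance trend and 3 residual degrees of freedom, and was tested on simulated data. Those data had independent noise drawn from the same variance trend. They cannot show how the fit behaves where most genes shift together, as in TP replicate 2. The prior degrees of freedom of limma came out infinite in the fit, so each gene's variance was the trend value for its level. The limma p-values, SE and intervals therefore measure the spread typical of genes at that level. A gene's own spread between these rats does not enter them. Alternatives were other pseudocounts (0.1, 1), filters (none, 5 TPM), scalings and sample sets. Named genes were the members, the 10 genes of most similar pattern and, per list, those past the threshold and the most abundant. Ctss, Tap1, Clec10a, Ccr7, Lyz2, Coro1a, the DO genes, RT1-Db2, Glycam1, Ccl21, Ms4a1, Cd79b, Cd8a and Cd3e were named after their values were seen. Members and lists were chosen with earlier results of these data known.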

Additional observations from a re-analysis of the deposited data

How the results depend on the processing

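The number of genes called, 6, 8 and 24 for TP against control, TP+hucMSC-Exs against TP and TP+hucMSC-Exs against control, moved widely with limma. With median-of-ratios scaling it was 0, 2 and 2; without the filter 0, 0 and 0 (160, 315 and 368 at an unadjusted p below 0.05); with TPM rescaled without digestive enzymes 2, 4 and 7; and with only the 2 groups compared 0, 1 and 6056. It was 14 with a pseudocount of 0.1 in the first comparison and 12 with a pseudocount of 1 in the last. Leaving out 1 library gave 0 to 10706, 0 to 9537 and 1 to 6031 genes, the highest each without TP replicate 1. Replicate numbers carry no stated pairing; with the replicate number as a block the counts were 10, 22 and 35, and no member was called. The replicate differences of 2 groups correlated at 0.0805 to 0.279 over genes.

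Members called numbered 0 in each comparison, and 0 to 3, 0 to 5 and 0 to 1 with 1 library left out. With only the 2 groups compared, 1 was called for TP+hucMSC-Exs against control. The log2 ratio of summed class II TPM was 1.57, -1.16 and 0.41 (two-sided exact permutation p = 0.667, 1 and 1). With median-of-ratios scaling it turned to -0.16 in the first comparison and -1.04 in the last, and with TPM rescaled without digestive enzymes to -0.31 in the last. With 1 library left out it ran from -1.16 to 4.30, -3.89 to 1.57 and -1.71 to 2.52.

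Of 168 fold changes of single members under the other settings, 12 lay on the other side of 0 and 1 passed the threshold. Median-of-ratios scaling turned TP against control for Cd74 (-0.22), RT1-Da (-0.39), RT1-Db1 (-0.22), RT1-Ba (-0.48) and RT1-Bb (-0.68). It also turned TP+hucMSC-Exs against TP for RT1-DMa (0.023) and RT1-DMb (0.25) and TP+hucMSC-Exs against control for Cd74 (-1.25). Rescaling without digestive enzymes turned RT1-DMb against TP (0.20) and Cd74 against control (-0.53). A pseudocount of 0.1 turned RT1-DMb against TP (0.0032) and RT1-Db1 against control (0.061).

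With 1 library left out, TP against control ran from -1.19 to 4.17 for Cd74, -1.35 to 3.93 for RT1-Da, -1.13 to 3.99 for RT1-Db1, -1.39 to 3.73 for RT1-Ba, -1.50 to 3.47 for RT1-Bb and -0.65 to 5.14 for RT1-DMb. TP+hucMSC-Exs against TP ran from -4.01 to 1.35 for Cd74, -4.07 to 1.21 for RT1-Da, -4.02 to 1.10 for RT1-Db1, -4.44 to 0.68 for RT1-Ba, -3.71 to 1.26 for RT1-Bb, -2.99 to 2.32 for RT1-DMa and -3.13 to 2.65 for RT1-DMb. TP+hucMSC-Exs against control ran from -1.97 to 2.28 for Cd74, -1.99 to 1.71 for RT1-Da, -2.09 to 2.03 for RT1-Db1, -2.68 to 1.26 for RT1-Ba and -1.93 to 1.45 for RT1-Bb. The difference in the DM to classical chain ratio was also taken over other genes, chosen after seeing the data: with RT1-DMa to RT1-Da, RT1-DMb to RT1-Db1 or DM to Cd74 it was 0.97 to 2.59, 1.16 to 1.54 and 2.52 to 3.76. TPM hold no depth, so the counting error of low values such as those of Ciita could not be estimated, and a group left with 1 library was assumed to vary like the others. Leaving out single genes of the marker lists and a TP library in the pathway lists was likewise chosen after seeing the data. Without TP replicate 1 limma called every tested gene of the 5 pathway lists higher in TP against control and most of them lower in TP+hucMSC-Exs against TP, as it did most of all genes. The causes were not tested.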

Other observations

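Cd8a, the alpha chain of the CD8 co-receptor, parted from the T cell receptor complex. It stood at 0 and 2.92 TPM in control, 0.54 and 53.3 TPM in TP, and 11.5 and 20.5 TPM in TP+hucMSC-Exs, while Cd3e, a subunit of that complex, stood at 0 and 6.47 TPM, 0 and 6.02 TPM, and 0.49 and 0.47 TPM. Cd8a was above Cd3e in all 4 injured libraries and below it in control replicate 2. No test was made of this difference, which was chosen after its values were seen.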
